A study of Mus musculus with 2 samples.

Results

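The respiratory chain genes described here are the rows of the count tables whose symbol starts with Nduf, Cox4 to Cox8, Uqcr or Atp5, is Sdha, Sdhb, Sdhc or Sdhd, or starts with mt-, without pseudogene names. They number 106 of 31053 rows. Of these, 13 are the protein genes of the mitochondrial genome (the mt- genes) and 93 are nuclear. The nuclear rows hold 36 subunits of complex I and 8 factors that assemble it, 4 subunits of complex II, 8 of complex III, 20 of complex IV and 17 of complex V. Single-cell RNA was measured in P0 mouse eye cups, from which cornea, lens and optic nerve had been removed. The control library was a pool of 3 eye cups of the genotype Myrf fl/fl, and the mutant library a pool of 3 eye cups of the genotype Rx>cre Myrf fl/fl. Both therefore carry the floxed Myrf alleles, and the Rx>cre transgene, which acts in the early eye field that forms both neural retina and retinal pigment epithelium (RPE), is the difference between them. With 1 library per genotype no test between genotypes was possible, so every interval below is an exact 95% Poisson or binomial interval that covers counting error only, and genotype, litter and library cannot be told apart.

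The respiratory chain sits in the inner mitochondrial membrane. Complexes I and II take electrons from NADH and succinate, complex III passes them to cytochrome c, complex IV passes them to oxygen, and complex V uses the resulting proton gradient to make ATP. Complex II is built from nuclear genes alone, whereas the other complexes combine subunits of both genomes, and several complex IV subunits exist as isoforms that differ between tissues or respond to oxygen. The RPE is an epithelium rich in mitochondria that supports the photoreceptors, and retinal progenitors and young neurons rely strongly on glycolysis.

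After filters, 12514 control and 10856 mutant cells were kept, with a median of 4260.5 and 4815 UMIs (unique transcript molecules) per cell. Clusters were named by marker lists as "-like" classes. Levels are given for the 12 classes with at least 50 cells in each library, and genotype ratios for the 7 with at least 100. The RPE-like class held 506 control and 224 mutant cells, and its depth differed strongly, with a median of 2410 UMIs in control and 9959 in mutant cells. Levels are given in CPM, the UMIs of a gene scaled to 1e+06 UMIs of the class. Myrf itself stood at 229 CPM in RPE-like cells of the control library and at 25.7 CPM in those of the mutant; the counts come from the 3′ end of transcripts, so this need not read the deleted part. The 12 RPE markers summed to 24756 CPM in the control class and to 14970.4 CPM in the mutant class, where 1 of them was at 0. Unnamed clusters held 2110 control and 1383 mutant cells.

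RPE-like cells had the highest share of respiratory chain transcripts of both genomes among the 12 classes in both libraries. The mt- genes made up 5.80% (control) and 5.56% (mutant) of their UMIs, and the nuclear members 4.12% and 4.94%. Photoreceptor-like cells came next for the mt- genes, at 4.99% and 4.24%, and pericyte-like cells, the contractile cells of small vessels, for the nuclear members, at 3.63% and 3.56%. Among nucleated classes the lowest nuclear share was in mesenchyme or fibroblast-like cells, at 2.12% and 2.06%. Red blood-like cells, whose transcripts are dominated by globin, had 0.788% and 0.596% of their UMIs in mt- genes and 0.449% and 0.515% in nuclear members. The order of the mt- shares was not the order of the nuclear shares. Retinal progenitor-like cells had 3.11% nuclear and 3.53% mt- UMIs in the control, a ratio of mt- to nuclear of 1.13, whereas photoreceptor-like cells had 3.01% and 4.99%, a ratio of 1.66. In the middle of the nuclear order the control values of photoreceptor-like, muscle-like and neurogenic-like cells (3.01%, 2.98% and 2.96%) lay close together.

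**Figure D1:**
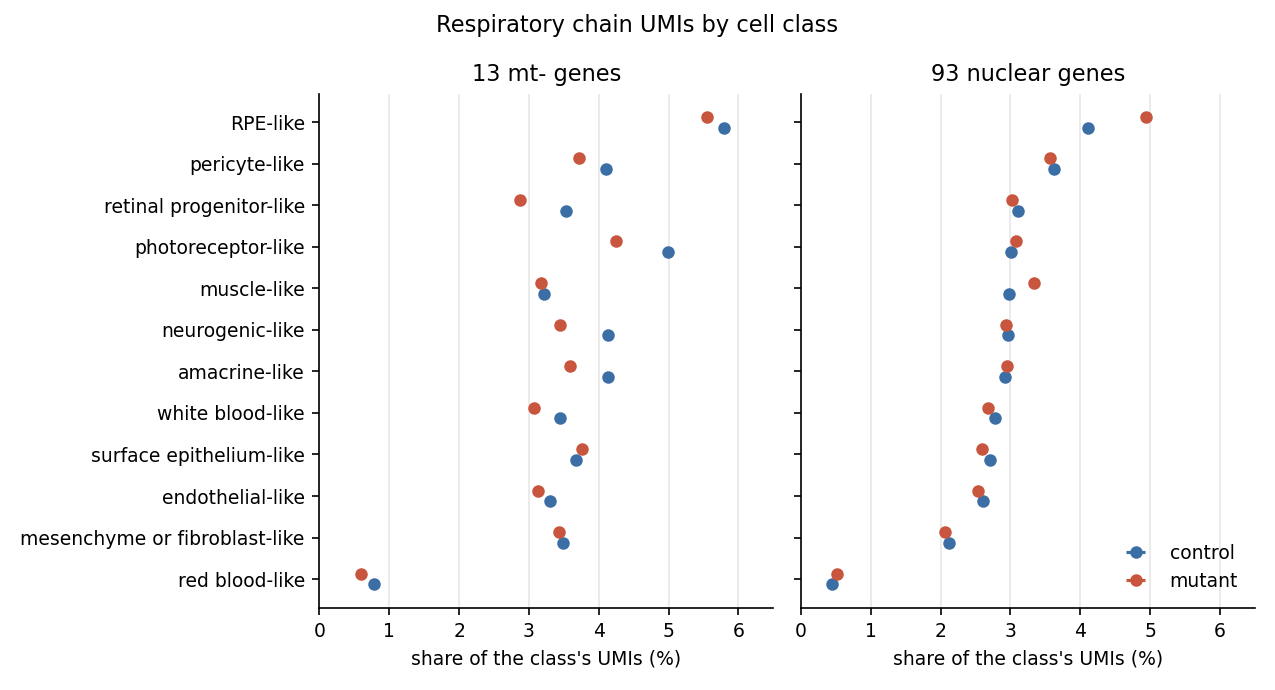
Share of each class's UMIs, in percent, that fell on the 13 mt- genes (left) and the 93 nuclear genes (right) in the control (blue) and mutant (red) library; bars are 95% Poisson intervals, mostly narrower than the points. RPE-like cells are highest for both sets, at 5.80% and 5.56% mt- and 4.12% and 4.94% nuclear, and red blood-like cells lowest.

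The high share in RPE-like cells was spread over many genes. Of the 83 nuclear members whose median level over the classes was at least 20 CPM, 46 had their highest level in RPE-like cells in the control and 60 in the mutant library, and of the 12 mt- genes at that level 10 and 12 did. The same count over all genes is not given here, so these counts do not show whether such a peak is particular to the members. Cox8a (chr19:7215153-7217616), a small complex IV subunit and the nuclear member with the most UMIs over all cells, was at 2331 CPM in control and 3081 CPM in mutant RPE-like cells, against 982 and 972 CPM in progenitor-like cells. Ndufa4, a complex IV subunit named after complex I, was at 1488 and 1658 CPM in RPE-like cells and at 678 and 641 CPM in progenitor-like cells. 2 further genes were picked out after their values were seen. Ndufa8, an accessory complex I subunit, was highest in endothelial-like cells, at 471 and 442 CPM, with 238 and 301 CPM in RPE-like cells. Ndufv3, another accessory subunit, was highest in photoreceptor-like cells, at 514 and 548 CPM, with RPE-like cells close below at 482 and 516 CPM. Complex II showed no such peak in RPE-like cells for Sdhb, which was highest in surface epithelium-like cells at 297 and 296 CPM, while Sdhd was highest in RPE-like cells at 217 and 245 CPM.

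Isoform genes were the members that differed most between classes. In 5 members the highest class was at least 4 times the median over classes in both libraries (or the median was 0 and the highest class held more than 3 UMIs), and each is a complex IV isoform or partner. How many of all genes pass this rule is not given here. Cox6a2, the form of subunit VIa used in heart and skeletal muscle, was at 41.5 and 63.4 CPM in muscle-like cells and at no more than 2.30 CPM in any other class. Within the muscle-like class its UMIs came almost entirely from a cluster led by Acta1, a skeletal muscle actin, which held 33 of its 85 UMIs over all control cells and 35 of its 64 over all mutant cells. That cluster had 23 control and 19 mutant cells with a median of 768 and 728 UMIs, and Cox6a2 stood there at 1274.6 CPM (33 UMIs, interval 877 to 1790.0) and 939.98 CPM (35 UMIs, interval 655 to 1307). In the other muscle-like cluster, led by Myog, a regulator of early muscle differentiation, Cox6a2 had 1 UMI in 78 control cells and 3 UMIs in 49 mutant cells. The general isoform Cox6a1 was at 152 and 197 CPM in the Myog cluster and at 77.2 CPM (2 UMIs) and 107 CPM (4 UMIs) in the Acta1 cluster, with intervals that overlapped. Cox8b, the muscle form of subunit VIII, was also highest in muscle-like cells, at 20.7 and 40.0 CPM. RPE-like cells were second for Cox8b, at 7.62 CPM (25 UMIs) and 9.35 CPM (24 UMIs), and pericyte-like cells had none of its UMIs in either library. Cox7a1, the muscle form of subunit VIIa, was low in every class, highest in white blood-like cells of the control (14.97 CPM) and in RPE-like cells of the mutant (15.2 CPM, with 13.1 CPM in the control). In the Acta1 cluster it had 1 UMI in the control (38.6 CPM, interval 0.98 to 215) and 5 in the mutant (134 CPM, interval 43.6 to 313).

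Cox4i2 (chr2:152754173-152765037) and Ndufa4l2 (chr10:127514967-127517154) were the pair among these 5 that peaked in pericyte-like cells. Cox4i2 is the oxygen-responsive form of complex IV subunit 4, and Ndufa4l2 is a paralog of Ndufa4 that is induced by low oxygen. Cox4i2 was at 546 and 522 CPM in pericyte-like cells and at 333 and 438 CPM in progenitor-like cells. Ndufa4l2 was at 1632 and 1499.8 CPM in pericyte-like cells and at 951 and 1163 CPM in progenitor-like cells. Neurogenic-like cells, which are leaving the progenitor state, followed at 55.5 and 96.2 CPM for Cox4i2 and at 212 and 381 CPM for Ndufa4l2. The general forms varied less or ran in another order. Cox4i1 was at 947 and 858 CPM in progenitor-like cells and 1145 and 1155 CPM in pericyte-like cells, and Ndufa4 was lower in pericyte-like cells (396 and 419 CPM) than in progenitor-like cells.

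**Figure D2:**
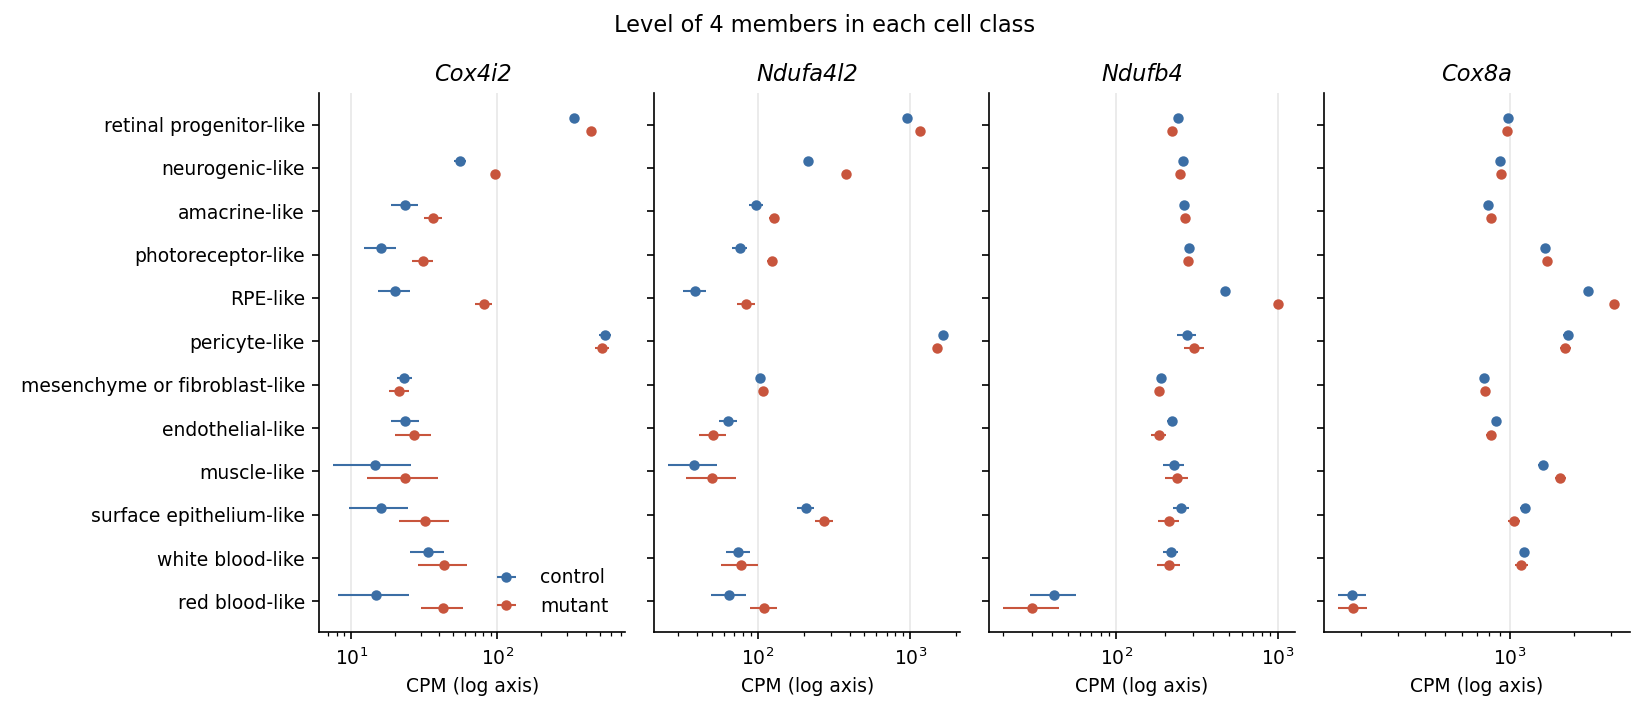
Level of Cox4i2, Ndufa4l2, Ndufb4 and Cox8a in CPM on a log axis in each class of the control (blue) and mutant (red) library; bars are 95% Poisson intervals. Cox4i2 and Ndufa4l2 are highest in pericyte-like and progenitor-like cells, and Ndufb4 stands at 471 CPM in control and 1009.7 CPM in mutant RPE-like cells, with the other classes below 310 CPM.

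Between genotypes the nuclear and mitochondrial members moved differently, and RPE-like cells stood apart from the neural retina classes. In RPE-like cells the nuclear share was higher in the mutant library by 0.26 on the log2 scale (interval 0.25 to 0.27), and the mt- share was 0.06 lower. In the 4 neural retina classes the larger difference was in the mt- genes. The mt- ratio was -0.30 in progenitor-like cells, -0.26 in neurogenic-like cells, -0.23 in photoreceptor-like cells and -0.20 in amacrine-like cells, where the nuclear ratios were -0.04, -0.01, 0.03 and 0.01. In mesenchyme or fibroblast-like and endothelial-like cells, which do not arise from the eye field, the mt- ratios were -0.02 and -0.08 and the nuclear ratios -0.04 and -0.04. Markers of mesenchyme and of lens were also lower in the mutant library in each of the neural retina classes. Lists of other cells moved in either direction. The 8 astrocyte markers summed to 663 and 707 CPM in progenitor-like cells and to 160 and 140 CPM in photoreceptor-like cells. Between the 4 classes the 10 mesenchyme markers summed to 1391 to 2032 CPM in control and 201 to 304 CPM in mutant cells, and the 9 lens markers to 234 to 347 CPM and 1.87 to 3.56 CPM. The lens cluster itself held 198 control and 2 mutant cells. Their part in the mt- difference was not tested. None of these sums of members reached the fold of 0.5 on the log2 scale that was used to call single genes.

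**Figure D3:**
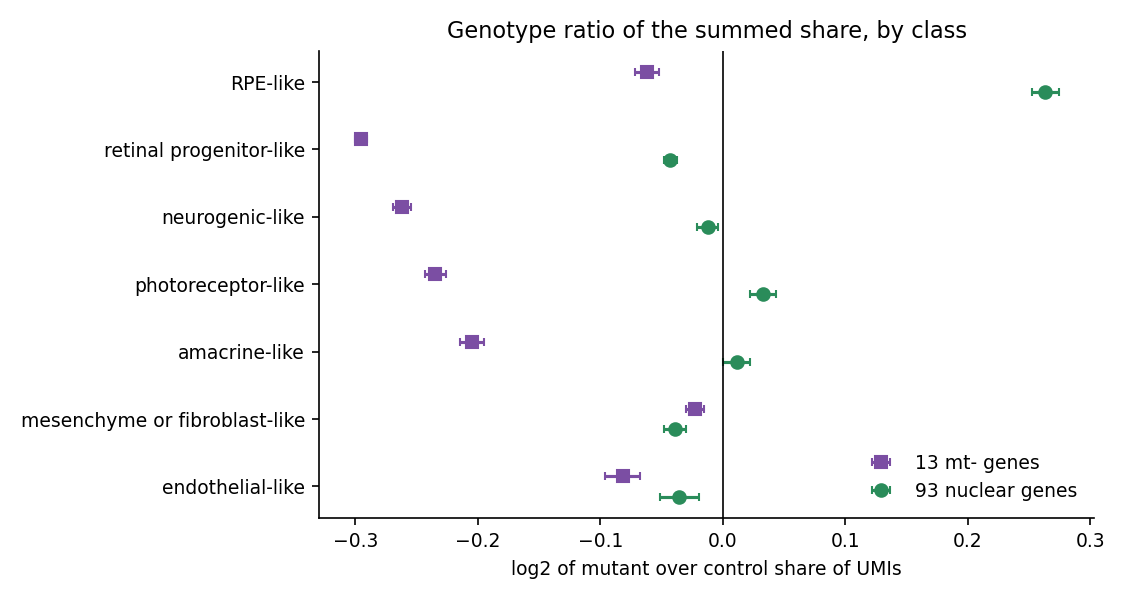
Log2 of the mutant over the control share of UMIs for the 13 mt- genes (purple squares) and the 93 nuclear genes (green circles) in 7 classes; bars are 95% counting intervals. The nuclear point of RPE-like cells lies at 0.26, and the mt- points of the 4 neural retina classes lie between -0.30 and -0.20.

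In RPE-like cells nearly all nuclear members leaned to the mutant. Of the 93 rows, 84 were measured, meaning a mean of at least 20 CPM and at least 50 UMIs over both libraries. Of those, 78 were higher in the mutant, 61 of them with an interval above 0, and 6 were lower, none with an interval below 0. Their median log2 ratio was 0.23, against 0.01 over the 6168 genes measured in the class, 51.3% of which were above 0. Past the fold, 5 of the 84 were higher and 0 lower, where 7.13% of all measured genes were higher and 10.9% lower, so the share of members past the fold was below that of all genes in either direction together (5.95% against 18.1%). The count moved with the cells used, to 15 with every cell weighted equally and to 37 of 66 measured members in cells of at most 2000 UMIs, where 38.6% of all genes were past the fold. Ribosomal protein genes, a set added after the data were seen, moved the same way and further. Their share was 11.4% in control and 14.8% in mutant RPE-like cells, with 80 of 81 measured genes above 0 and a median of 0.36. In the other 6 classes the median of the ribosomal protein genes lay between -0.09 and 0.03. Over the 1554 genes of at least 100 CPM in RPE-like cells the median was 0.07, 59.7% were above 0 and 580 had an interval above 0, as had 1156 of all 6168. Marker lists of other cells differed in the class as well. The 10 mesenchyme markers summed to 2403 CPM in control and 328 CPM in mutant cells and the 9 lens markers to 320 and 38.2 CPM, and both were lower in the mutant in the neural retina and endothelial-like classes too. The 8 astrocyte markers, 4 of them higher in the mutant, summed to 1653 and 3512 CPM. The part of these shifts in the respiratory chain result was not tested.

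The shift touched every complex. The median log2 ratio in RPE-like cells was 0.21 over 36 complex I subunits, 34 of them above 0. It was 0.12 over the 4 complex II subunits, 0.16 over 8 of complex III, 0.32 over 15 of complex IV and 0.28 over 15 of complex V. All measured members of complexes II, IV and V were above 0, with lowest values of 0.06, 0.14 and 0.09. The complex I assembly factors stood apart from the subunits, with 3 of 6 above 0 and a median of 0.02. Among the 3 members with the most UMIs in each complex, Cox7c went from 1177 to 1468 CPM (0.32), Uqcrh from 866 to 1041 CPM (0.26) and Ndufa2 from 505 to 613 CPM (0.28), whereas Ndufa7 (631 and 639 CPM) and Ndufc2 (742 and 753 CPM) had intervals that included 0. In complex V, Atp5g2, a subunit of the proton-driven ring, went from 754 to 1049 CPM (0.48), Atp5e from 1143 to 1578 CPM (0.46) and Atp5h from 1172 to 1256 CPM (0.10). Uqcrb and Uqcrq of complex III differed by 0.16 and 0.09, and Cox4i1 by 0.16. In complex II, Sdhc, a membrane anchor, went from 94.7 to 125 CPM (0.40, interval 0.17 to 0.63), and Sdha, Sdhb and Sdhd differed by 0.08, 0.06 and 0.17, of which the intervals of Sdha and Sdhb included 0.

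**Figure D4:**
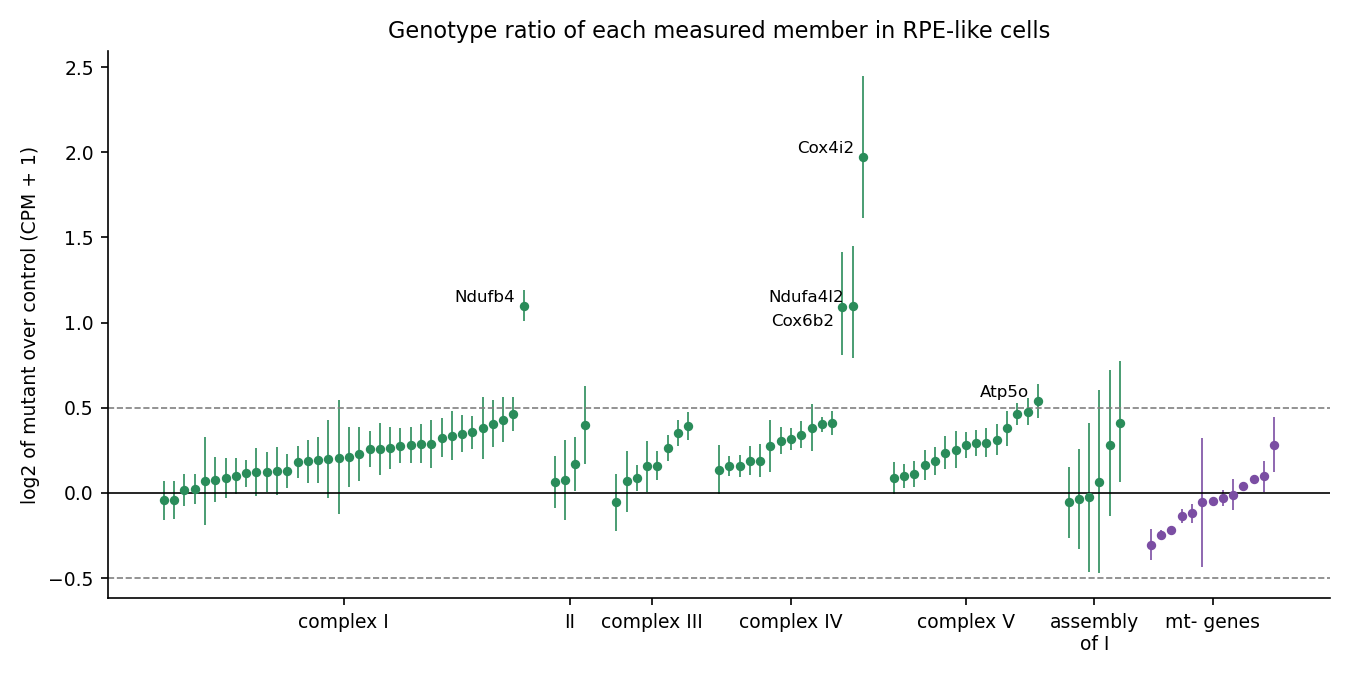
Log2 of mutant over control level (CPM with 1 added) for each measured member in RPE-like cells, ordered by value within each complex, with 95% counting intervals; dashed lines mark 0.5 in each direction. Of 84 nuclear members (green) 78 lie above 0 and 5 above the upper line, while 9 of 13 mt- genes (purple) lie below 0.

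The 5 members past the fold were Cox4i2, Ndufb4, Ndufa4l2, Cox6b2 and Atp5o. Ndufb4 (chr16:37647170-37654453), an accessory subunit in the membrane arm of complex I, had 1546 control and 2593 mutant UMIs there, or 471 and 1009.7 CPM, a log2 ratio of 1.10 (interval 1.01 to 1.19). The mutant level was above the control level in each band of cell depth, at 1218 against 478 CPM in cells under 2000 UMIs, 837 against 501 CPM from 2000 to 4000, 1127 against 580 CPM from 4000 to 8000 and 1002 against 456 CPM from 8000 upwards, with intervals that did not overlap. With each cell thinned to 1000 UMIs, 35.3% of 402 control and 61.7% of 196 mutant cells of the class held a Ndufb4 UMI (without thinning, 66.0% and 87.1%). In red blood-like cells, which should hold little, 6.90% and 2.47% did. In the other 6 classes its log2 ratio lay between -0.27 and 0.02. Atp5o, the subunit that joins the stalk of complex V to its catalytic head, went from 459 to 668 CPM (0.54, interval 0.44 to 0.64), and a second row of that name held no UMI. Just inside and outside the fold stood Atp5o at 0.54 and Atp5g2 at 0.48, followed by Atp5e, Ndufa1 (0.46), Ndufa5 (0.43) and Cox6c (0.41).

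Promoters of the nuclear members were read from RefSeq sequences of GRCm38.p6, 250 bases before to 50 bases after the start, for 74 of 92 nuclear symbols; Cox4i2 and Ndufa4l2 had no entry. The letters GCGCATGC or GCGCACGC on either strand, the core bound by NRF1, a regulator of nuclear respiratory genes, were found in 17 of the 74 members (23.0%) and in 6.08% of 27025 genes. By complex they were in 4 of 32 complex I subunits, 2 of 3 complex II, 2 of 5 complex III, 1 of 14 complex IV and 6 of 13 complex V genes, and in 2 of 7 assembly factors. CCGGAAGT on either strand, an ETS factor core, was in 5 of 74 (6.76%) and in 4.31% of all genes. ACGTG or GCGTG on either strand, a core bound by hypoxia-inducible factors, was in 49 of 74 (66.2%) and in 46.7% of all genes, and can overlap the NRF1 letters. The windows of Ndufb4, Atp5o and Cox8a are shown because the first pair had the largest well-detected shifts and the last the highest level; capitals mark the NRF1 and ETS letters. The window of Cox6b2 held neither.
Ndufb4 (minus strand, chr16:37654319-37654618): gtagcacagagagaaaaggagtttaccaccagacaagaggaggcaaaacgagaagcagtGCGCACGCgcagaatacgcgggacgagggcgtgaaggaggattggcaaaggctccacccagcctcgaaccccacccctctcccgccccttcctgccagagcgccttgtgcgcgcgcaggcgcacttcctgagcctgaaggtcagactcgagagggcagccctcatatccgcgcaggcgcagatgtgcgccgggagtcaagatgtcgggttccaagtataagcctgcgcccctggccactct
Atp5o (minus strand, chr16:91931581-91931880): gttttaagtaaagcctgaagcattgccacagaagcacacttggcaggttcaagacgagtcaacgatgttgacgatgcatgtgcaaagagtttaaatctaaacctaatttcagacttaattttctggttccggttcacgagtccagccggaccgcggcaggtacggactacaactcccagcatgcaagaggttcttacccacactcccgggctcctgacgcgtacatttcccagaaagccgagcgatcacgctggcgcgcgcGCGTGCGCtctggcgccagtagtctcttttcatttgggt
Cox8a (minus strand, chr19:7217567-7217866): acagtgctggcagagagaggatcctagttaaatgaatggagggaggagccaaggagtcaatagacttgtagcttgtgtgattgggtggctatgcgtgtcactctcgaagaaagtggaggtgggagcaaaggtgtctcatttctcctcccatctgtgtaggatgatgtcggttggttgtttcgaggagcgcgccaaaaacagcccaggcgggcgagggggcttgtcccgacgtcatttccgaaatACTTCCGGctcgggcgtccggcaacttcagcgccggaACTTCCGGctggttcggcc
Ndufb4 and Atp5o each held the NRF1 core once, and Cox8a held the ETS core in 2 places. A match in letters is a description and not a site.

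The other members past the fold in RPE-like cells had few UMIs. In this class Cox4i2 had 65 control and 207 mutant UMIs (19.8 and 80.6 CPM, log2 ratio 1.97), Ndufa4l2 126 and 214 UMIs (38.4 and 83.3 CPM, 1.10) and Cox6b2, a form of subunit VIb best known from testis, 147 and 248 UMIs (44.8 and 96.6 CPM, 1.09). After thinning, Cox4i2 was seen in 3.48% of control and 5.61% of mutant cells of the class (without thinning, 9.88% and 35.3%). In red blood-like cells, which should lack it, it was seen in 0 of 116 control cells, where the interval reaches up to 3.13%, and in 7.41% of 81 mutant cells. For Ndufa4l2 the thinned shares were 5.97% and 7.14% in RPE-like and 12.1% and 7.41% in red blood-like cells, and for Cox6b2 they were 5.22% and 8.67% against 6.03% and 6.17%. Cox6b2 was rarer in photoreceptor-like cells, at 0.869% and 1.16%, and in amacrine-like cells, at 0.712% and 0.426%, and its ratio in RPE-like cells lay between 0.77 and 1.29 under the alternatives. The RPE-like ratio of Cox4i2 ranged from -1.23 to 1.97 and that of Ndufa4l2 from -1.18 to 1.27. For each of the pair the sign held in 9 of 10 alternatives. Cox4i2 was at 1.74% and 2.63% in photoreceptor-like cells and Ndufa4l2 at 5.56% and 8.73%. No single class fixed a background level for these genes. The median depth was 2410 and 9959 UMIs in RPE-like cells and 3657 and 12098 UMIs in red blood-like cells. The intervals of the thinned shares in RPE-like cells overlapped between the libraries for Cox4i2, Ndufa4l2 and Cox6b2, so no difference in the share of cells was detectable at this depth. The UMIs of these genes were also concentrated. The 23 of 224 mutant RPE-like cells with the most UMIs of each gene held 62.3% of those of Cox4i2, 86.0% of Ndufa4l2 and 54.8% of Cox6b2, with up to 18, 27 and 23 in a single cell. The control was no less concentrated. Its 51 of 506 cells with the most held 100%, 86.5% and 61.2%, with up to 4, 13 and 4 in a single cell. In cells with at most 2000 UMIs the log2 ratios turned to -1.23 for Cox4i2 and -1.18 for Ndufa4l2. These rest on 12 control and 1 mutant UMI of Cox4i2 and 34 and 3 of Ndufa4l2, with levels whose intervals overlapped. In each deeper band both genes were higher in the mutant. From 8000 UMIs upwards the levels were 13.4 and 80.9 CPM for Cox4i2 and 15.4 and 73.5 CPM for Ndufa4l2. The intervals in that band did not overlap. Of 10 progenitor markers, 6 were higher in mutant RPE-like cells, their sum was 1637 CPM in control and 1959 CPM in mutant cells, and none was at 0 in either library; their part in these values was not tested.

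In progenitor-like cells both genes were seen far more often than in red blood-like cells, and both were higher in the mutant library. Cox4i2 was seen after thinning in 27.8% of 3340 control and 34.1% of 4005 mutant progenitor-like cells, and Ndufa4l2 in 51.9% and 59.2% (unthinned, 70.0% and 79.6% for Cox4i2 and 82.9% and 90.9% for Ndufa4l2). The log2 ratios were 0.39 (interval 0.34 to 0.44) for Cox4i2 and 0.29 (0.26 to 0.32) for Ndufa4l2, of which the latter moved to 0.08 with clusters made at resolution 2 and to 0.77 in cells of at most 2000 UMIs. Neither passed the fold in that class, where 0 nuclear members did and where 0.822% of 6445 genes were higher and 0.434% lower. In neurogenic-like cells Ndufa4l2 was seen in 16.4% of 1669 control and 28.1% of 1753 mutant cells, and its ratio was 0.84 (0.76 to 0.93). Cox4i2 in neurogenic-like cells had a ratio of 0.78 (0.62 to 0.97) but thinned shares of 4.61% and 7.42%, the latter next to the 7.41% of mutant red blood-like cells, and its ratio turned to -0.59 in the cells with at most 2000 UMIs. These were the 2 nuclear members past the fold there, both higher, against 1.08% of all genes higher and 0.611% lower. In photoreceptor-like cells Cox4i2 (0.91) and Ndufa4l2 (0.69) were again the 2 past the fold, with 1.46% of genes higher and 1.20% lower, and in amacrine-like cells Cox4i2 (0.62) was the single one, with 1.21% higher and 1.11% lower. The thinned shares were low there, at 2.28% and 4.69% for Cox4i2 and 7.98% and 10.0% for Ndufa4l2 in amacrine-like cells, beside the red blood-like and photoreceptor-like values above. No nuclear member passed the fold in mesenchyme or fibroblast-like cells (0.883% of genes higher, 1.45% lower) or in endothelial-like cells (2.64% higher, 3.43% lower). There Cox4i2 had ratios of -0.11 and 0.18 and Ndufa4l2 of 0.08 and -0.31, all with intervals that included 0.

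Most nuclear members in progenitor-like cells lay slightly below the control, with 70 of 85 measured members lower, 49 of them with an interval below 0, and a median of -0.06. Of the 15 above 0, Cox4i2 and Ndufa4l2 among them, 8 had an interval above 0, as had 1625 of all 6445 genes. The highest complex I subunit was at 0.26 and the highest assembly factor at 0.34. Over all genes 981 of 6445 had an interval below 0 and the median was 0.03, and over those of at least 100 CPM 532 of 1675 had one and the median was -0.01. Complex III was lower throughout, with 0 of 8 above 0 in progenitor-like and in neurogenic-like cells. In progenitor-like cells complexes I, IV and V leaned the same way, with 5 of 36, 2 of 15 and 2 of 15 above 0, and complex II had 2 of 4. In neurogenic-like cells 30 of 85 nuclear members were above 0, against 62.1% of all genes. In photoreceptor-like and amacrine-like cells 51 of 82 and 44 of 82 members were above 0 (62.2% and 53.7%), close to the 58.1% and 59.2% of all genes.

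The lower mt- shares of the neural retina classes came from most mt- genes, although none passed the fold in any of the 7 classes. In progenitor-like cells 11 of 12 measured mt- genes were lower, 8 with an interval below 0, while 59.3% of all measured genes were above 0. The largest differences were in mt-Co3 (4087 and 3166 CPM, -0.37), mt-Atp6 (11515 and 9041 CPM, -0.35), mt-Cytb (5861 and 4672 CPM, -0.33) and mt-Co2 (5319 and 4315 CPM, -0.30), which encode a complex IV subunit, a complex V subunit, cytochrome b of complex III and another complex IV subunit. The complex I genes of this genome differed less, with mt-Nd4 at -0.24, mt-Nd2 at -0.17, mt-Nd1 at -0.08, mt-Nd5 at -0.05, mt-Nd3 at -0.03 and mt-Nd4l at -0.02, and mt-Atp8 was at 0.05. Summed by complex, the ratios in progenitor-like cells were -0.34 for complex V, -0.33 for III, -0.31 for IV and -0.14 for I. Genes mt-Atp8 and mt-Atp6, and mt-Nd4l and mt-Nd4, overlap on the same strand, so how their reads were divided is uncertain. The share per cell moved with the sums, with a median of 3.42% in control and 2.61% in mutant progenitor-like cells. The cells overlapped widely, since the lower quartile of the control, 2.13%, lay below the mutant median. In RPE-like cells the median per cell was higher in the mutant, at 4.67% in control and 4.98% in mutant cells, although the summed share was lower.

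In RPE-like cells the mt- genes did not move as a block. The complex IV genes mt-Co1 (7213 and 6068 CPM, -0.25) and mt-Co3 (9093 and 7804 CPM, -0.22) and the complex I genes mt-Nd5 (763 and 618 CPM, -0.30), mt-Nd4 (-0.13) and mt-Nd2 (-0.12) were lower in the mutant. By contrast mt-Cytb (9196 and 9726 CPM, 0.08), mt-Atp6 (12520 and 12888 CPM, 0.04), mt-Nd4l (0.10) and mt-Atp8 (0.28, from 199 and 242 CPM) were higher, and mt-Co2, mt-Nd1, mt-Nd3 and mt-Nd6 lay between -0.05 and -0.01. Thus 9 were lower, 6 of them with an interval below 0, and 4 higher, all 4 with an interval above 0. The mix of mt- transcripts differed between classes. In RPE-like cells mt-Atp6 made up 21.6% and 23.2% of mt- UMIs, against 32.7% and 31.5% in progenitor-like cells, and mt-Co3 15.7% and 14.0%, against 11.6% in control progenitor-like cells and 14.8% and 14.5% in mesenchyme or fibroblast-like cells. The gene mt-Nd6, the only member read from the opposite strand of this genome, held 138 and 104 UMIs in RPE-like cells.

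The mt- share depended on cell depth, and in opposite directions in the classes. In RPE-like cells it rose with depth, from 4.28% of control and 3.45% of mutant UMIs in cells under 2000 UMIs to 6.07% and 5.70% in cells of 8000 or more. In amacrine-like cells it fell, from 4.96% and 4.59% between 2000 and 4000 UMIs to 3.59% and 3.14% at 8000 or more. Within each of the 4 depth bands the mt- share of RPE-like cells was lower in the mutant, by 0.31, 0.24, 0.19 and 0.09 from the shallowest band to the deepest, all more than the pooled 0.06; the mutant class held 123 of its 224 cells in the deepest band and the control 153 of its 506. The nuclear share of RPE-like cells was higher in the mutant in every band, by 0.52, 0.36, 0.18 and 0.27, and the ribosomal protein share by 0.27, 0.24, 0.28 and 0.45. In progenitor-like cells the mt- share was lower in the mutant in every band, by 0.58, 0.34, 0.25 and 0.34. In photoreceptor-like cells it was lower by 0.24, 0.24 and 0.12 in the 3 bands from 2000 UMIs upwards, but 0.19 higher in the 78 control and 60 mutant cells under 2000 UMIs. Cells with over 15% mt- UMIs, which were left out, were 0.965% of control and 1.20% of mutant barcodes.

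**Figure D5:**
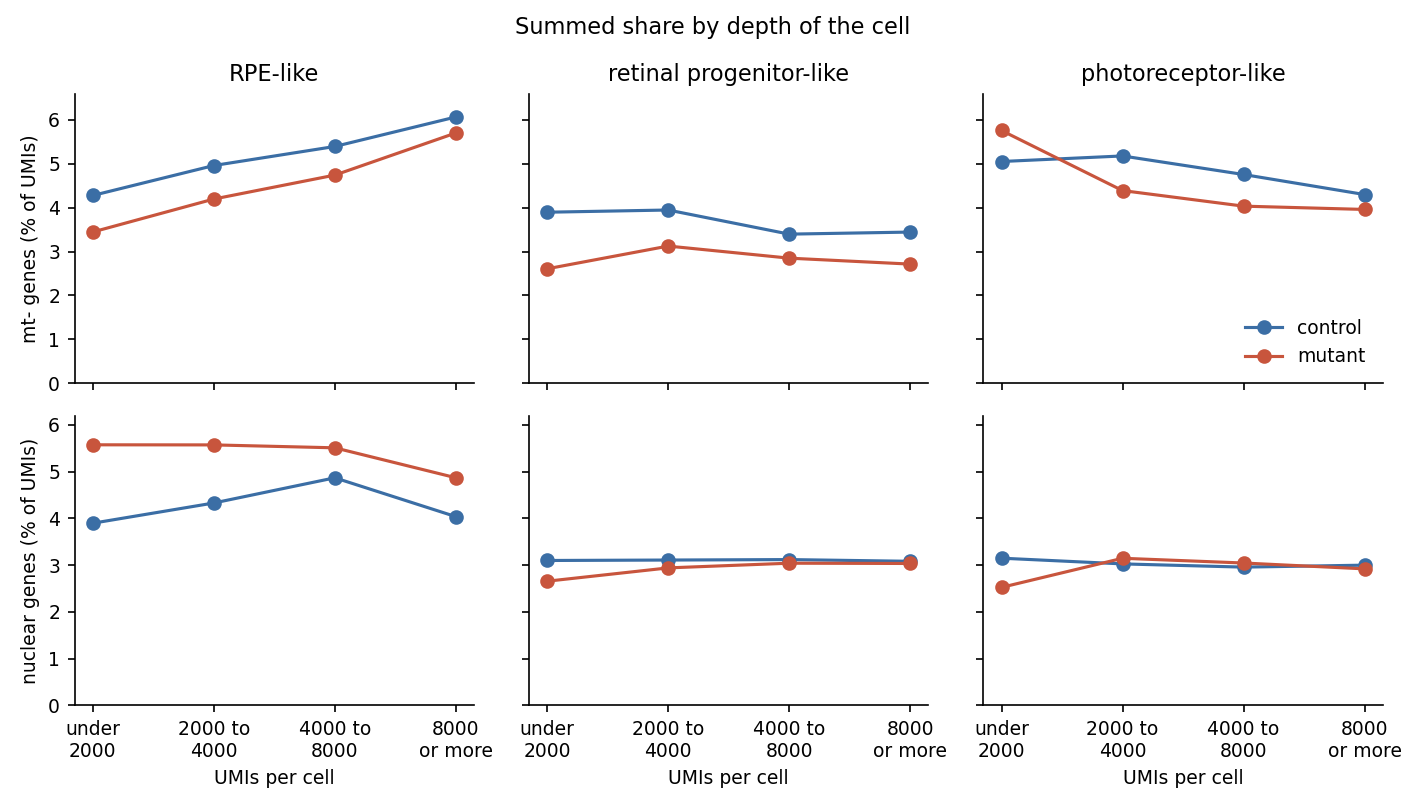
Share of UMIs on mt- genes (top) and nuclear members (bottom), in percent, in 4 bands of UMIs per cell for RPE-like, progenitor-like and photoreceptor-like cells of the control (blue) and mutant (red) library. In RPE-like cells the mt- share climbs with depth in both libraries, from 4.28% to 6.07% and from 3.45% to 5.70%, and the mutant nuclear share lies above the control in every band.

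Lists of neighbouring pathways were counted in the same way in RPE-like cells, where 7.13% of all measured genes were past the fold upwards and 10.9% downwards; a single call in a list of this size is close to those shares. Of the 17 glycolysis genes, 15 were measured, 7 were past the fold upwards and 1 downwards, with a median of 0.48. The largest were Ldha, which makes lactate (454 and 969 CPM, 1.09), and Pgk1 (538 and 1069 CPM, 0.99), and the one lower was Aldoc (196 and 113 CPM, -0.79). In the citric acid cycle, 13 of 13 were measured, 10 were above 0 with a median of 0.26, and 1 passed the fold, Dlst, a subunit of the 2-oxoglutarate dehydrogenase (24.4 and 35.4 CPM, 0.52). Among assembly factors outside the gene-name rule, 15 of 31 were measured, none passed the fold, and the median was 0.12. Among 7 measured genes of mitochondrial gene expression and biogenesis, 1 passed it, Ppargc1a, a coactivator of respiratory genes, which was lower (70.4 and 40.9 CPM, -0.77, interval -1.13 to -0.44). Of 9 measured mitochondrial stress genes 1 passed it, Psat1, an enzyme of serine synthesis, also lower (59.1 and 30.8 CPM, -0.92). In progenitor-like cells 7 of 13 measured glycolysis genes were past the fold, all upwards (0.822% of all genes were higher and 0.434% lower), with a median of 0.57, while the citric acid cycle had 0 of 13 and a median of -0.04.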

How the data were processed

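The deposited values are raw UMI counts per gene and cell, which the authors made from 10x 3′ libraries with Cell Ranger 7.1.0 on GRCm38 (mm10), per the labels and methods (the file header gives software version 3.1.0). The members and gene lists were chosen with earlier results of these data known. Barcodes with at least 200 genes and at most 15% mt- UMIs were kept after removal of the highest doublet scores (scanpy 1.11.5, 0.8% per 1000 barcodes), which were 1633 of 14305 control and 1190 of 12222 mutant barcodes. The libraries shared 59 barcodes. The study's limit of 2000 UMIs was an alternative, since 80.2% and 92.1% of barcodes exceed it. Cells were clustered in Seurat 5.3.0 after anchor integration (1972 genes, members left out, resolution 1). A cluster was named where at least 3 markers and 50% of a list stood out, limits chosen after the clusters had been seen. Counts were then added up over the cells of each class in each library. Ratios are log2 of mutant over control CPM with 1 CPM added; those of sums have none added. Exact intervals came from scipy 1.17.1. The ratio intervals were run on simulated Poisson counts, the model that they assume. That run cannot show how they hold where the UMIs of a gene gather in few cells. Coordinates are those of GENCODE M21 on GRCm38, matched by gene ID for all 106 rows. Members named in the text are the mt- genes, the 3 highest nuclear genes of each complex, the 10 largest ratios in RPE-like cells, isoform genes, Sdha to Sdhd, and genes whose highest class is at least 4 times their median; list genes are the most changed.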

Additional observations from a re-analysis of the deposited data

How the results depend on the processing

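With 1 library per genotype every ratio rests on a single pair of pools, and its interval covers counting error only. All values are log2 ratios of mutant over control unless a count is named. The sign held under all 10 alternatives for the 4 summed shares of RPE-like and progenitor-like cells, whereas the median mt- share per cell in RPE-like cells was higher in the mutant (4.67% and 4.98%).

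In RPE-like cells the mt- ratio (-0.06) was -0.012 with no upper mt- limit, -0.035 with at most 5% mt- UMIs, -0.036 with doublets kept, -0.18 in cells of 2000 to 8000 UMIs, -0.31 in cells of at most 2000 UMIs, -0.030 after thinning to 1000 UMIs, -0.050 at resolution 2 and -0.074 when centred on the median of all genes. The nuclear ratio (0.26) was 0.52 in cells of at most 2000 UMIs, 0.30 after thinning, 0.34 with cells weighted equally and 0.25 when centred. In progenitor-like cells the mt- ratio (-0.30) was -0.31 without mt- UMIs in the denominator, -0.25 with at most 5% mt- UMIs, -0.30 with doublets kept, -0.28 in cells of 2000 to 8000 UMIs, -0.58 in cells of at most 2000 UMIs, -0.31 after thinning, -0.31 with cells weighted equally and -0.33 when centred. The nuclear ratio (-0.04) was -0.053 without mt- UMIs in the denominator, -0.22 in cells of at most 2000 UMIs, -0.055 after thinning, -0.052 with cells weighted equally, -0.078 at resolution 2 and -0.075 when centred.

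The count of nuclear members past the fold in RPE-like cells (5) was 8 with at most 5% mt- UMIs, 10 in cells of 2000 to 8000 UMIs, 37 in cells of at most 2000 UMIs, 14 after thinning and 15 with cells weighted equally. The members past the fold were then 9.52%, 12.8%, 56.1%, 18.7% and 17.9% of those measured, against 27.0%, 25.4%, 38.6%, 27.1% and 29.2% of all genes; the cause was not tested. In cells of at most 2000 UMIs the sign turned for Cox4i2 (-1.23) and Ndufa4l2 (-1.18) in RPE-like cells and for Cox4i2 in neurogenic-like cells (-0.59). The RPE-like values rest on 1 mutant UMI of Cox4i2 and 3 of Ndufa4l2, and both genes were higher in the mutant in each deeper band. Ndufb4 in RPE-like cells stayed between 0.94 and 1.35, and Atp5o between 0.52 and 0.97. Ndufa4l2 in progenitor-like cells ranged from 0.08 (resolution 2) to 0.77 (at most 2000 UMIs). The sign of the mt- ratio was positive in cells of at most 2000 UMIs in endothelial-like (0.26) and photoreceptor-like (0.19) cells, and in mesenchyme or fibroblast-like cells it ranged from -0.10 to 0.20. The nuclear ratio in cells of at most 2000 UMIs was -0.32 in photoreceptor-like, -0.29 in mesenchyme or fibroblast-like and -0.10 in endothelial-like cells. Without the Col1a1-led cluster, which held 594 control and 33 mutant cells and was left out after seeing the data, the mesenchyme or fibroblast-like ratios were 0.01 (mt-) and -0.00 (nuclear). No paired analysis was possible because each genotype has 1 library.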
